A study of Mus musculus with 6 samples.

Results

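The genes described here are 10 members of the prostaglandin pathway, and they were found by their gene symbols in the 6 deposited expression tables, which list 17067 genes each. They are the cyclooxygenases Ptgs1 and Ptgs2, the prostaglandin E synthases Ptges, Ptges2 and Ptges3, the prostaglandin D synthase Hpgds, the thromboxane synthase Tbxas1 and the prostaglandin E2 receptors Ptger2, Ptger3 and Ptger4. All 10 are listed, and 8 reached the level set for testing, 1 FPKM or more in no fewer than 3 samples. RNA was sequenced on a BGISEQ-500 from colon cells sorted as positive for CD45, CD11b and the macrophage surface protein of the Adgre1 gene. The donors were C57BL/6 mice aged 10 weeks in which dextran sulfate sodium (DSS) had induced colitis, so both genotypes carried the injury and no untreated colon was compared. The 3 wild-type (WT) samples were set against 3 samples of Gsdmd-/- mice, which lack gasdermin D, the protein whose cleaved form opens pores in the cell membrane during pyroptosis. The labels give no further allele, no Cre line, no sex and no DSS dose, and do not say whether the 3 samples of a group are separate mice. The p-values therefore stand for sample-to-sample spread, part or all of which may be technical.

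Prostaglandins are short-lived lipid signals made from arachidonic acid, which phospholipases free from membrane lipids. A cyclooxygenase turns arachidonic acid into prostaglandin H2, and terminal synthases convert that into prostaglandin E2 (PGE2), D2, F2α, prostacyclin or thromboxane A2. PTGS1 is the constitutive cyclooxygenase, whereas PTGS2 is induced by inflammatory signals and is the target of many anti-inflammatory drugs. In the colon PGE2 is known both for its part in inflammation and for support of epithelial repair, and in macrophages it acts through the receptors EP2 and EP4, which raise cyclic AMP.

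The deposited values name no unit and were read as FPKM, fragment numbers scaled to the length of the transcript and the size of the library. Levels of different genes are set side by side with that limit, and a trend of the changes with transcript length is described below. Each library was estimated at 19.94 M to 20.48 M fragments. Gsdmd itself (chromosome 15, 75862144 to 75867408) stood at 97.65, 99.35 and 97.35 FPKM in WT against 28.47, 28.99 and 29.69 FPKM in Gsdmd-/- samples, which matches the labels in direction. The level did not reach 0, and the labels do not say which part of the gene was deleted. All 12 macrophage markers passed into the test, where 6 rose and 5 fell (1 rose and 10 fell with the trend described below removed). Among them were Itgam (CD11b, 176 FPKM in WT against 91.3 FPKM in Gsdmd-/- samples), Adgre1 (291 and 216 FPKM), Ptprc (CD45, 92.4 and 57.9 FPKM) and, as the highest, Lyz2 (5010 and 5470 FPKM). The 3 gate genes, all of which fell, were named after their values were seen. The groups differed at most genes: 77.5% of the 10005 tested genes changed by limma's test at an adjusted p under 0.05, 40.6% upward and 36.9% downward, with a median log2 change of 0.03. The changes also ran with transcript length, from a median of 0.52 to one of -0.48 between the shortest and the longest of 10 length classes of equal size, and a smooth trend on length and GC content accounted for 50.7% of their variance. For that reason most changes below are also given with that trend removed, on which scale 61.3% of 9853 genes changed (30.0% rose and 31.4% fell). Rescaling each sample to one common sum (TPM) gave calls for 76.0% of genes and moved the median of all genes from 0.03 to -0.17, and changes on that scale stand relative to that shift.

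In WT macrophages the highest of the 10 genes were Tbxas1 (49.8 ± 0.392 FPKM, SD, n = 3), Ptgs2 (49.0 ± 1.70 FPKM) and Ptges3 (45.6 ± 0.167 FPKM). Tbxas1 and Ptgs2 overlapped in range, and all 3 WT values of Ptges3 lay below those of Ptgs2. Hpgds followed at 12.8 ± 1.20 FPKM, Ptger4 at 9.75 ± 0.506 FPKM, Ptgs1 at 4.51 ± 0.131 FPKM, Ptges2 at 2.99 ± 0.0611 FPKM and Ptges at 2.19 ± 0.176 FPKM, each below the range of the gene before it. Ptger3 (0.697 ± 0.0737 FPKM) and Ptger2 (0.170 ± 0.0794 FPKM) came last. Among the tested genes, 84.0% had a lower WT level than Ptgs2, 49.7% a lower level than Ptger4 and 13.5% a lower level than Ptges. In Gsdmd-/- macrophages Tbxas1 (55.1 ± 0.291 FPKM) and Ptges3 (45.2 ± 2.38 FPKM) were the 2 highest, and Ptgs2 came after them at 17.5 ± 1.1 FPKM. There the ranges of Ptges2 and Ptgs1 overlapped, as did those of Ptger3 and Ptger2.

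**Figure D1:**
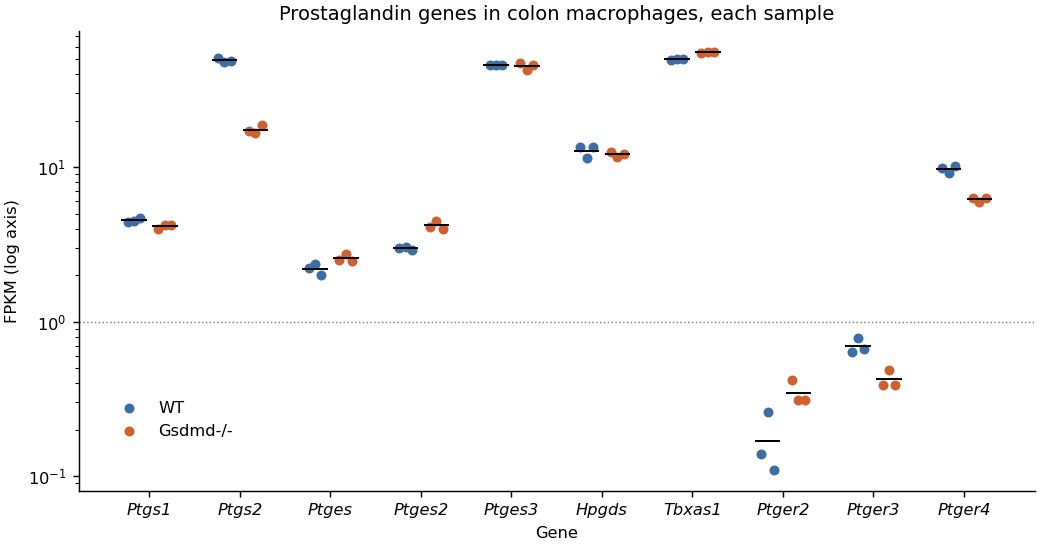
Level of each of the 10 prostaglandin genes (FPKM, log axis) in the 3 WT samples (blue) and the 3 Gsdmd-/- samples (orange), with the group mean as a black line; the dotted line marks 1 FPKM, the level used as the filter. Ptgs2 and Ptger4 lie lower and Ptges2 higher in all Gsdmd-/- samples than in all WT samples, while Ptges3 and Hpgds overlap.

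The inducible cyclooxygenase was the tested member that differed most between the genotypes, and the constitutive one differed little. Ptgs2 (gene 19225, chromosome 1, 150100031 to 150108234, plus strand) read 50.84, 47.47 and 48.79 FPKM in WT against 17.07, 16.65 and 18.73 FPKM in Gsdmd-/- samples. The 2 groups were far apart, and the highest Gsdmd-/- sample stayed well under the lowest WT sample. Ptgs2 fell to 0.357 of its WT mean, a log2 change of -1.44 (SE 0.0483, limma adjusted p = 7.21e-10). Only 24 of the 10005 tested genes, Ptgs2 included, fell as much or more. Its longest transcript has 4453 bases with 40% GC, where the trend alone stands at -0.46, and without that trend the change was -0.98 (SE 0.0367), matched or passed by 50 of 9853 genes. On the TPM scale it was -1.68.

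Ptgs1 (gene 19224, chromosome 2, 36216742 to 36258593, plus strand) read 4.41, 4.47 and 4.66 FPKM in WT against 3.98, 4.2 and 4.21 FPKM in Gsdmd-/- samples. All Gsdmd-/- values lay below all WT values, by a narrow margin. Its log2 change of -0.10 (SE 0.0593, limma adjusted p = 0.128) did not pass the test on the deposited scale. It passed with the trend removed (-0.16, limma adjusted p = 0.0269) and as TPM (-0.31, where the median of all genes was -0.17). It did not pass under quantile normalization (-0.01, limma adjusted p = 0.901). Nor did it pass with the trend fitted on the median length and GC of a gene's transcripts (-0.01, limma adjusted p = 0.903). The ratio of the isozymes within a sample does not depend on the scale of the library. The log2 ratio of Ptgs2 to Ptgs1 was 3.53, 3.41 and 3.39 in WT and 2.10, 1.99 and 2.15 in Gsdmd-/- samples, a difference of -1.36 (-0.85 with the trend removed). The groups did not overlap, and the two-sided exact permutation test gave p = 0.1, the smallest that 3 samples against 3 allow. Put as a share, Ptgs1 made up 8.44% ± 0.397 of the summed level of both cyclooxygenases in WT and 19.1% ± 0.917 in Gsdmd-/- samples (SD, n = 3 each), and that sum was 53.5 ± 1.66 and 21.6 ± 1.15 FPKM.

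The promoters of the 2 cyclooxygenase genes are shown because the isozymes share a reaction and differ in regulation. Each is the plus-strand RefSeq window from 250 bases before to 50 bases after the annotated start in GRCm38.p6, written 5′ to 3′, at chr1:150099781-150100080 for Ptgs2 and chr2:36230176-36230475 for Ptgs1, with motif matches in capitals. The start of Ptgs1 in that table lies inside the span given above.
Ptgs2: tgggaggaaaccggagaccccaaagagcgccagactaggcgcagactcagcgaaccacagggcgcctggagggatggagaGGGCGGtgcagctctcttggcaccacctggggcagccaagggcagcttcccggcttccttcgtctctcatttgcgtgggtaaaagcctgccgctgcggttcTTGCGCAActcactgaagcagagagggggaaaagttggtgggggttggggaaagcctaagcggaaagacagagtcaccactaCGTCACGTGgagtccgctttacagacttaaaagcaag
Ptgs1: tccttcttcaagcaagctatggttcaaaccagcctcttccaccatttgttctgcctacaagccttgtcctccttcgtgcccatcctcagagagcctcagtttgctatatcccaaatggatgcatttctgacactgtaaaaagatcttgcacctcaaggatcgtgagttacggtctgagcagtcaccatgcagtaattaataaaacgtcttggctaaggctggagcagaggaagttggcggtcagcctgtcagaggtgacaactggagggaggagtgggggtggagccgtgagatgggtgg
A search of both strands covered 7 motifs: the core TGACG of the cyclic AMP response element, the E-box CACGTG, the C/EBP motif TTGCNNAA, the TATA box TATAAA, the GC box GGGCGG, the AP-1 motif TGANTCA and the kappa B motif of NF-kB. With the first base of the annotated transcript at position 0, the Ptgs2 window held a GC box at -170, a C/EBP match at -69, and at 13 a core of the cyclic AMP response element that overlaps an E-box at 16. None of the 7 was found in the Ptgs1 window. Of 32851 mouse promoter windows of the same length, 35.7% hold the GC box, 20.8% the TGACG core, 10.8% the C/EBP motif and 7.15% the E-box. A match is a description of the letters and not a measured site.

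Of the 3 PGE2 synthases, the one anchored to membranes without being induced by inflammation, Ptges2, rose, and neither the inducible nor the cytosolic one passed the test. Ptges2 (gene 96979, chromosome 2, 32395890 to 32402740, plus strand) read 3.0, 3.04 and 2.92 FPKM in WT against 4.12, 4.5 and 3.96 FPKM in Gsdmd-/- samples. Every Gsdmd-/- value lay above every WT value. Its mean was 1.4 times that of WT, a log2 change of 0.38 (SE 0.0647, limma adjusted p = 0.000181), and it was 0.49 with the trend removed. Its longest transcript has 4978 bases, and the median change in its length class was -0.37, so Ptges2 moved against the genes of like length. The trend at its length and GC together was nearer to no change, at -0.11. On the TPM scale the change was 0.23 (adjusted p = 0.0131).

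Ptges (gene 64292, chromosome 2, 30889471 to 30931020, minus strand) encodes the microsomal synthase that is induced together with PTGS2 in inflamed tissue. It read 2.21, 2.36 and 2.01 FPKM in WT against 2.52, 2.72 and 2.46 FPKM in Gsdmd-/- samples. The groups did not overlap, with the Gsdmd-/- samples higher, but the log2 change of 0.16 (SE 0.0705) had a limma adjusted p of 0.055. With the trend removed the change was 0.16, again with no call (limma adjusted p = 0.0642). The change passed under quantile normalization (0.23, adjusted p = 0.0133, where 77.1% of all genes changed) and without WT replicate 2 (0.20, adjusted p = 0.0391), and it was 0.00 as TPM. Ptges3 (gene 56351, chromosome 10, 128058982 to 128077254, plus strand) encodes p23, a co-chaperone of HSP90 that was also described as a cytosolic PGE2 synthase. It read 45.39, 45.72 and 45.60 FPKM in WT against 47.27, 42.59 and 45.68 FPKM in Gsdmd-/- samples. The Gsdmd-/- samples spread around the WT samples, with 1 above, 1 below and 1 among them, and the log2 change was -0.01 (SE 0.0407, limma adjusted p = 0.775). Its value is uncertain in one respect: the processed pseudogene Ptges3-ps is identical to it over a run of 480 bases, and how reads shared by both were counted is not given in the sources used here. With the trend removed Ptges3 had no call (limma adjusted p = 0.978). As TPM it fell by 0.23 on the log2 scale, close to the shift of all genes on that scale. Ptges made up 4.32% ± 0.322 of the summed level of the 3 synthases in WT and 4.95% ± 0.441 in Gsdmd-/- samples, and the two-sided exact permutation test gave p = 0.1.

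The promoter of Ptges2 is shown as that of the synthase that rose (RefSeq, GRCm38.p6, chr2:32395640-32395939, plus strand), with its single match, an E-box 77 bases before the annotated start, in capitals.
Ptges2: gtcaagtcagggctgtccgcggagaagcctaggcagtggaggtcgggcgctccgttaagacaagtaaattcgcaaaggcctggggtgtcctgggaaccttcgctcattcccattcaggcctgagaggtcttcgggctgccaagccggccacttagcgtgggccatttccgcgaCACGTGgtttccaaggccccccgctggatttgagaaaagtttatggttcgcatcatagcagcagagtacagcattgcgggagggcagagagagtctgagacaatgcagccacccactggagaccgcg

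The genes for thromboxane synthase and the prostaglandin D synthase differed little, and their direction depended on the scale. Tbxas1 (gene 21391, chromosome 6, 38864159 to 39084590, plus strand), whose product makes thromboxane A2, a constrictor of vessels and activator of platelets, read 49.41, 49.74 and 50.19 FPKM in WT against 54.79, 55.37 and 55.12 FPKM in Gsdmd-/- samples. The groups were tight and did not overlap. It rose by a log2 change of 0.14 (SE 0.031, limma adjusted p = 0.00112) on the deposited scale, while it fell by 0.08 with the trend removed (adjusted p = 0.0154) and stood at -0.08 as TPM (adjusted p = 0.0706). The median change in its length class was 0.24. An antisense gene, Gm42962, shares 144 exon bases with it, and whether the values use strand is not given. Platelets also make thromboxane: 10 of 10 platelet markers are listed, and none is at 0 in all samples. Their summed level, mostly that of Pf4, ran from 213 to 231 FPKM in WT and from 319 to 332 FPKM in Gsdmd-/- samples. Of the 3 tested ones, the chemokine Pf4, the highest, stood at 214 and 316 FPKM (change 0.56, limma adjusted p = 3.36e-08). Ppbp, named after its values were seen, stood at 4.0 and 6.55 FPKM (0.59, limma adjusted p = 7.15e-06). Both rose, also as TPM, and with the trend removed Ppbp (0.42) rose while Pf4 (0.03) had no call. Treml1, also named after its values were seen, stood at 0.26 and 1.19 FPKM. It met the filter only through the Gsdmd-/- samples, so the test of its rise carries no weight. The other 7, among them Itga2b (0.20 and 0.787 FPKM), stayed below the filter, at or under 0.89 FPKM in every sample. The part of platelets in the Tbxas1 value was not tested.

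Hpgds (gene 54486, chromosome 6, 65117293 to 65144981, minus strand) makes prostaglandin D2 in blood-derived cells. It read 13.42, 11.40 and 13.52 FPKM in WT against 12.52, 11.59 and 12.22 FPKM in Gsdmd-/- samples. All 3 Gsdmd-/- values lay within the range of the WT values, which replicate 2 widened downward. The log2 change was -0.07 (SE 0.0643, limma adjusted p = 0.344) and became -0.14 (adjusted p = 0.0336) without that WT sample. With the trend removed Hpgds rose by 0.21 (adjusted p = 0.00804), and as TPM it fell by 0.28. Mast cells and tuft cells of the gut express Hpgds too. Of 12 mast cell markers 9 are listed, none at 0 in all samples, with sums of 11.6 to 12.2 FPKM in WT against 11.3 to 12.5 FPKM in Gsdmd-/- samples, mostly the histidine decarboxylase gene Hdc. Of the 2 tested ones Hdc rose (8.18 to 9.52 FPKM, log2 change 0.19) and Kit, named after its values were seen, fell (3.61 to 2.01 FPKM, -0.62). With the trend removed 0 of these 2 rose and 1 fell. The other 7, which include the protease genes Mcpt1, Mcpt4, Cma1 and Cpa3, reached at most 0.18 FPKM in any sample. Of 9 tuft cell markers 6 are listed, with sums of 7.77 to 8.49 and 7.66 to 8.45 FPKM, mostly Plcb2 (6.74 and 5.27 FPKM), and of 2 tested ones 1 rose and 1 fell. The part of either cell type in the Hpgds value was not tested.

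Among the PGE2 receptor genes, that of EP4 had the highest level in these samples and fell, while the other 3 were near or under 1 FPKM. Ptger4 (gene 19219, chromosome 15, 5233399 to 5244187, minus strand) read 9.84, 9.20 and 10.20 FPKM in WT against 6.26, 5.93 and 6.33 FPKM in Gsdmd-/- samples. The groups were well apart, and every Gsdmd-/- value lay below every WT value. Ptger4 fell to 0.633 of its WT mean, a log2 change of -0.58 (SE 0.0565, limma adjusted p = 1.6e-06). The trend at its length of 3312 bases is -0.01, and removing it left -0.57, which 336 of 9853 genes matched or passed. As TPM the change was -0.82. On the opposite strand, 82 of its exon bases are shared with Ttc33 and 1015 with the pseudogene Gm15937.

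Ptger2, the gene of EP2, the other receptor that raises cyclic AMP, read 0.14, 0.26 and 0.11 FPKM in WT against 0.42, 0.31 and 0.31 FPKM in Gsdmd-/- samples, on chromosome 14, 44988111 to 45003820. These levels stand for an estimated 8.2 to 18.9 fragments a WT sample and 23.1 to 31.2 fragments a Gsdmd-/- sample, and antisense and processed transcripts (Gm17173 and Gm49364) share exon bases with the gene. It was higher in all Gsdmd-/- samples but too low to enter the test. With no filter its log2 change was 0.20 (SE 0.0621, limma adjusted p = 0.025), a fit in which 49.2% of 17041 genes changed. Ptger3, whose product EP3 mostly lowers cyclic AMP (chromosome 3, 157566821 to 157644758), read 0.64, 0.78 and 0.67 FPKM in WT against 0.39, 0.49 and 0.39 FPKM in Gsdmd-/- samples. All Gsdmd-/- samples were lower, and the log2 change with no filter was -0.25 (SE 0.0628, limma adjusted p = 0.00975). Ptger1, the gene of the calcium-linked receptor EP1, was at 0.657 ± 0.0416 FPKM in WT against 0.603 ± 0.17 FPKM in Gsdmd-/- samples, and the ranges overlapped. The summed level of the 4 receptor genes was 11.3 ± 0.362 FPKM in WT against 7.55 ± 0.301 FPKM in Gsdmd-/- samples, and Ptger4 made up 86.4% ± 1.97 and 81.8% ± 0.889 of it. The log2 ratio of Ptger4 to Ptger2 was 6.14, 5.15 and 6.53 in WT and 3.90, 4.26 and 4.35 in Gsdmd-/- samples, a difference of -1.77 (two-sided exact permutation p = 0.1, the smallest possible) that was -0.79 once 1 FPKM was added to both genes.

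The promoter of Ptger4 is given as that of the receptor that fell (RefSeq, GRCm38.p6, chr15:5244138-5244437, minus strand), with 4 GC boxes in capitals, at -148, -143, -95 and -42 from the annotated start and read here on the opposite strand, the first 2 sharing 1 base.
Ptger4: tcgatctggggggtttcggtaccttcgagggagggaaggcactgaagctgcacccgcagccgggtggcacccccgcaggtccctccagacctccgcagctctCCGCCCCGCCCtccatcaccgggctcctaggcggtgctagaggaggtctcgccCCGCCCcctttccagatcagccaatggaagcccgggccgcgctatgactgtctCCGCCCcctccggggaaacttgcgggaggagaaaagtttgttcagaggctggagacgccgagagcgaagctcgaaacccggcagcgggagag

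Over the 8 tested members, 2 rose (Ptges2 and Tbxas1), 2 fell (Ptgs2 and Ptger4) and 4 did not pass the test, with a median log2 change of -0.04. That is a smaller share called than the 77.5% of all tested genes. In 6 of the 8 the groups did not overlap, 3 with higher and 3 with lower values in Gsdmd-/- samples, against 79.4% of all tested genes (41.2% higher and 38.3% lower). Without the trend on length and GC, 2 rose (Ptges2 and Hpgds) and 4 fell (Ptgs1, Ptgs2, Tbxas1 and Ptger4), beside 30.0% and 31.4% of all genes, and as TPM 1 rose and 5 fell, where 25.0% of all genes rose and 51.0% fell. When length and GC were taken as the median over a gene's transcripts, a choice made after seeing the data, Ptges, Ptges2, Ptges3 and Hpgds rose, as 35.5% of all genes did. Ptgs2, Ptges2 and Ptger4 kept their call and direction under all 17 alternative settings that tested them. In sorted bulk samples, fewer cells of a type and less RNA per cell cannot be told apart.

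**Figure D2:**
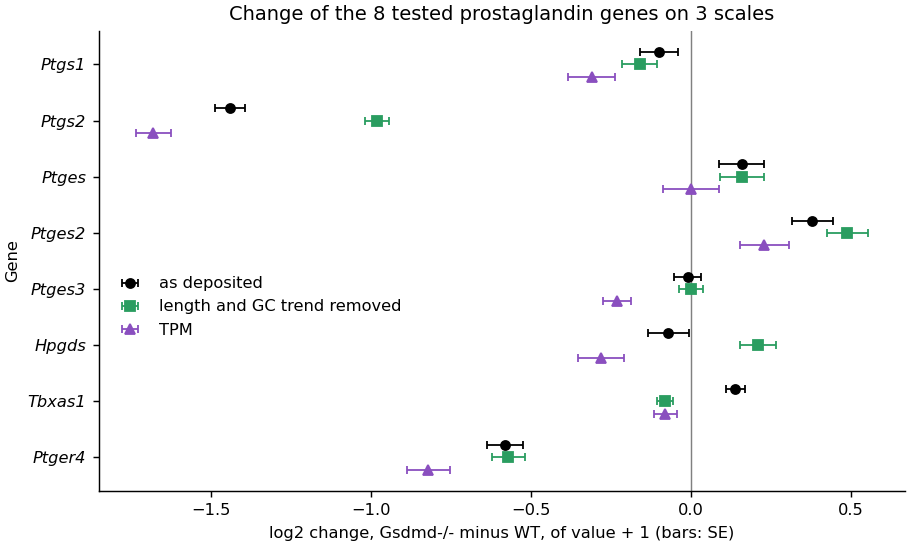
Log2 change, Gsdmd-/- minus WT, of value + 1 with its standard error for the 8 tested prostaglandin genes on the deposited FPKM scale (black circles), without the length and GC trend (green squares) and as TPM (purple triangles). Ptgs2 and Ptger4 lie left of 0 and Ptges2 right of 0 on all 3 scales, while Tbxas1 and Hpgds change sides.

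**Figure D3:**
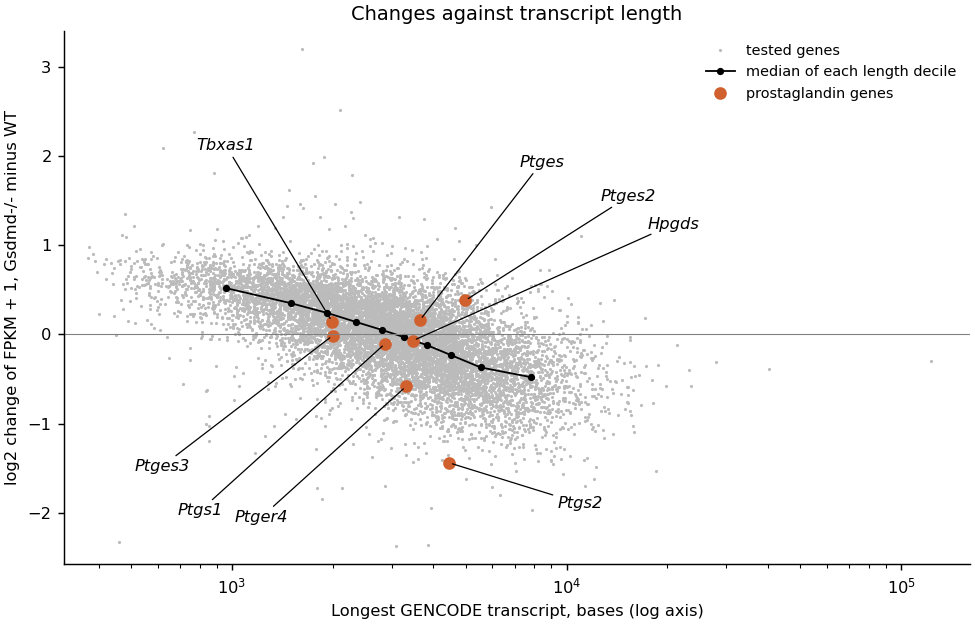
Log2 change of FPKM + 1, Gsdmd-/- minus WT, against the length of the longest GENCODE transcript (bases, log axis) for every tested gene with a length (grey), with the median of each of 10 length classes at its median length (black) and the 8 tested prostaglandin genes (orange). The medians run from 0.52 to -0.48, Ptgs2 and Ptger4 lie below them and Ptges2 lies above.

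Upstream of the cyclooxygenases, the phospholipase gene Pla2g4a was lower in Gsdmd-/- samples. It encodes cytosolic phospholipase A2, which frees arachidonic acid. It lies on the other strand of chromosome 1 (149829618 to 149961290), 138740 bases from Ptgs2, with no protein-coding gene between them in RefSeq. Pla2g4a read 28.45, 26.44 and 27.86 FPKM in WT against 20.33, 22.43 and 21.81 FPKM in Gsdmd-/- samples, without overlap. Its fall was 0.34 in log2 units (SE 0.0473, limma adjusted p = 3.08e-05), or 0.15 with the trend removed, and there was no call (adjusted p = 0.979) when lengths were taken as the median over transcripts. Among 14 tested genes of arachidonate release and reacylation, 3 rose and 7 fell, with a median of -0.05 (-0.09 with the trend removed). The counts of each related list stand beside 40.6% of all tested genes rising and 36.9% falling as deposited, 30.0% and 31.4% with the trend removed, and 25.0% and 51.0% as TPM. Pla2g15, the lysosomal phospholipase gene, named after its values were seen, stood above Pla2g4a in level (31.4 and 31.2 FPKM) and had no call as deposited, while it fell by 0.18 with the trend removed. The fatty acid CoA ligases Acsl1 (94.0 to 61.1 FPKM, log2 change -0.61) and Acsl4 (32.9 to 16.9 FPKM, -0.92) fell, of which Acsl4 prefers arachidonate. Mgll, the lipase that frees arachidonate from the endocannabinoid 2-arachidonoylglycerol, rose from 1.67 to 3.18 FPKM (0.65). All 3 kept these directions with the trend removed (-0.47, -0.35 and 0.63).

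The genes listed as other prostanoid synthases, outside the 10 members, moved upward on the deposited scale. The list includes reductases and a glutathione transferase, and whether they make prostanoids in these cells was not tested. All 7 tested genes rose, by a median log2 change of 0.56, but their transcripts are short and the median fell to 0.09 with the trend removed, where 4 rose and 1 fell. Akr1b3, an aldose reductase that also makes prostaglandin F2α, was the highest at 102 ± 0.226 FPKM in WT against 142 ± 1.36 FPKM in Gsdmd-/- samples and rose by 0.47 (0.09 with the trend removed). Its relative Akr1b8 rose by 0.63 (14.3 to 22.7 FPKM, and 0.28 with the trend removed). The carbonyl reductase Cbr1, which converts PGE2 to prostaglandin F2α, rose by 0.61 (8.70 to 13.8 FPKM, 0.19), Cbr3 by 0.53 (1.90 to 3.17 FPKM, 0.01) and Cbr2 by 0.36 (16.8 to 22 FPKM, -0.19). Gstm2, a glutathione transferase, rose from 1.38 to 4.01 FPKM (1.08, and 0.65 with the trend removed). Fam213b, a prostamide and prostaglandin F synthase, rose by 0.56 (7.05 to 10.8 FPKM) and stood at -0.08 with the trend removed. The prostacyclin synthase gene Ptgis was at or under 0.06 FPKM in every sample, and Akr1c18, at 0.267 ± 0.00577 FPKM in WT against 0.887 ± 0.207 FPKM in Gsdmd-/- samples, was also below the filter.

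None of the 6 genes found from the list of other prostanoid receptors, which also holds Ptger1, passed into the test. Ptgir, the prostacyclin receptor gene, was the highest, at 0.91, 1.11 and 1.03 FPKM in WT against 0.82, 0.78 and 0.85 FPKM in Gsdmd-/- samples, so that the groups did not overlap. Ptgfrn, a regulator of the prostaglandin F receptor, stood at 0.573 ± 0.0321 and 0.57 ± 0.0346 FPKM. Tbxa2r, the thromboxane receptor gene, averaged 0.02 FPKM in WT against 0.0467 FPKM in Gsdmd-/- samples, and Ptgdr2 (0.0367 and 0.01 FPKM) and Ptgfr (0.00333 and 0.04 FPKM) were as low. Hpgd, whose product inactivates PGE2, was at 0.41 ± 0.0794 FPKM in WT against 0.443 ± 0.131 FPKM in Gsdmd-/- samples, below the filter and with overlapping ranges. Of 6 tested genes of prostaglandin transport and breakdown, 1 rose and 4 fell. Ptgr1, a reductase that acts on the product of that step, rose from 15 to 22 FPKM (log2 change 0.52, and 0.45 with the trend removed). Abcc4, which exports PGE2 from cells, fell from 4.24 to 2.24 FPKM (-0.70 and -0.39). Slco3a1, a prostaglandin carrier, fell from 37.9 to 32.0 FPKM (-0.24), and its value of -0.04 with the trend removed did not pass.

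Downstream of EP2 and EP4, 7 of 26 tested genes of cyclic AMP signalling rose and 14 fell, with a median log2 change of -0.24 (7 rose, 13 fell and -0.15 with the trend removed). On the TPM scale the split was 1 to 19, beside 25.0% of all genes rising and 51.0% falling there. Adcy7, an adenylyl cyclase of blood cells, read 31.13, 29.70 and 30.21 FPKM in WT against 15.94, 16.16 and 18.08 FPKM in Gsdmd-/- samples, a fall of 0.82 on the log2 scale (0.57 with the trend removed). The drop of Rapgef2, an activator of Rap proteins, went from 31.3 to 14.7 FPKM (-1.05 and -0.64). Gnb2, a G protein subunit, rose from 216 to 298 FPKM (0.46), with 0.03 and no call once the trend was removed. Of 21 tested genes listed as induced by PGE2 or cyclic AMP, 7 rose and 11 fell (median -0.11), 8 rose and 9 fell with the trend removed (median 0.04), and 3 rose and 14 fell as TPM. Sik1, a kinase gene switched on by CREB, read 3.17, 3.15 and 2.96 FPKM in WT against 1.1, 1.28 and 1.28 FPKM in Gsdmd-/- samples, and fell by 0.88 (0.82 with the trend removed). Mrc1, the mannose receptor, fell from 87.8 to 58.1 FPKM (-0.59 and -0.13), whereas Rgs1, a brake on G protein signalling, fell from 282 to 224 FPKM (-0.33) and rose by 0.13 with the trend removed.

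Among regulators of Ptgs2 transcription, 10 of 22 tested genes rose and 10 fell, with a median log2 change of 0.00, 4 rose and 11 fell with the trend removed, and 5 rose and 14 fell as TPM. The NF-kB subunit Rel read 27.60, 25.02 and 25.76 FPKM in WT against 8.78, 9.53 and 9.57 FPKM in Gsdmd-/- samples, a fall of 1.4 on the log2 scale (SE 0.0523, limma adjusted p = 1.27e-09), or 0.80 with the trend removed. The subunit Nfkb1 fell from 95.1 to 64.0 FPKM (-0.57 and -0.51). Nr3c1, the glucocorticoid receptor, through which steroids repress Ptgs2, fell from 35.7 to 19.3 FPKM (-0.85 and -0.29). Of 16 regulators of Ptgs2 mRNA stability, 11 fell and 0 rose by limma's test (median -0.22), beside 36.9% and 40.6% of all tested genes, while 9 fell and 5 rose with the trend removed, beside 31.4% and 30.0%. The 3 with the smallest p are repressors of their targets: Zfp36l2, which promotes decay of mRNAs with AU-rich elements, fell from 65.2 to 32.2 FPKM (-1.0, and -1.06 with the trend removed), its relative Zfp36l1 from 14.8 to 8.57 FPKM (-0.72 and -0.70) and the Pumilio protein gene Pum2 from 24.6 to 14.5 FPKM (-0.72 and -0.17). Of 13 HSP90 chaperone genes and clients that work with p23, the product of Ptges3, 7 rose and 3 fell (5 and 4 with the trend removed, 5 and 7 as TPM). Hspa8 rose from 842 to 1080 FPKM (0.36, and 0.23 with the trend removed, but -0.08 under quantile normalization), and Hsp90aa1 read 55.42, 51.14 and 57.71 FPKM in WT against 85.31, 85.61 and 88.46 FPKM in Gsdmd-/- samples (0.65 and 0.86).

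**Figure D4:**
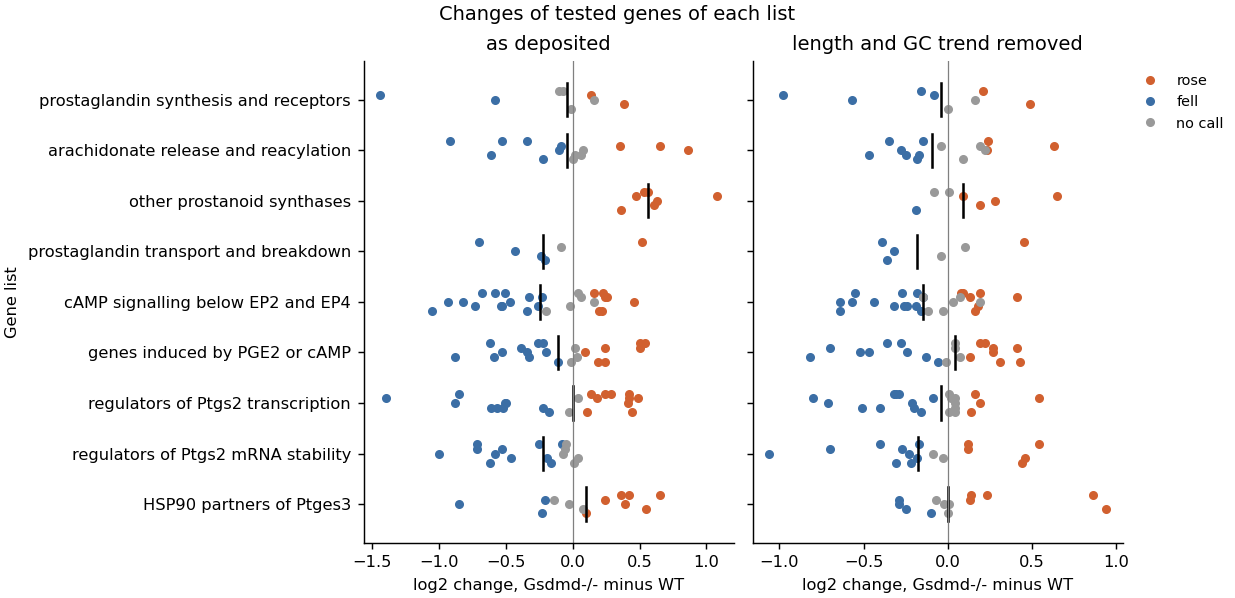
Log2 changes of FPKM + 1, Gsdmd-/- minus WT, of the tested genes in the prostaglandin set and 8 related gene lists, as deposited (left) and without the trend on length and GC (right); genes that rose are orange, genes that fell blue, genes without a call grey, and black bars are list medians. The genes listed as other prostanoid synthases lie right of 0 on the left panel with a median of 0.56, which is 0.09 on the right panel.

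The 5 tested genes whose values over the 6 samples lay nearest to those of Ptgs2, by the root mean square distance of log2(FPKM + 1) after each gene's mean was taken off, were Dennd1b, Pikfyve, Ppp4r3b, Elf1 and Zeb2. Their distances ran from 0.0283 to 0.0354 on the log2 scale. Dennd1b, a regulator of vesicle traffic, went from 29.7 to 10.5 FPKM, the lipid kinase gene Pikfyve from 15.7 to 5.32 FPKM, the phosphatase subunit gene Ppp4r3b from 13.6 to 4.58 FPKM, the transcription factor gene Elf1 from 45.2 to 16.5 FPKM and Zeb2, also of a transcription factor, from 72.6 to 25.9 FPKM. With the trend removed their log2 changes ran from -1.1 (Elf1) to -0.76 (Zeb2), which places the -0.98 of Ptgs2 among them. This likeness rests on 6 samples in 2 groups and is mostly the difference between the groups.

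Markers of other colon cells that express cyclooxygenases or PGE2 receptors moved with genotype as well, and their part in the values of Ptgs2, Ptges2 and Ptger4 was not tested. The marker counts here and above stand beside 40.6% of all tested genes rising and 36.9% falling as deposited. With the trend removed these shares were 30.0% and 31.4%. All 12 fibroblast markers are listed, 8 of 9 tested ones rose, and their sum ran from 66.9 to 69.5 FPKM in WT and from 127 to 130 FPKM in Gsdmd-/- samples, with Pdpn (32.4 and 33 FPKM) the highest in WT. The 6 smooth muscle markers summed to 2.15 to 4.10 and 11.7 to 12.9 FPKM, with Acta2 (2.2 and 7.67 FPKM) the highest. The 8 endothelial markers summed to 101 to 103 and 74.7 to 80.6 FPKM, with Kdr (56.4 and 26.2 FPKM) the highest in WT, and of 4 tested ones 1 rose and 1, Kdr, fell. The 7 of 9 T cell markers that are listed summed to 49.8 to 52.8 and 34.3 to 35.7 FPKM, mostly Il7r (45.5 and 25.2 FPKM), which fell while the other 2 tested ones rose. Neutrophil markers, 10 of 11, summed to 31.2 to 35.5 and 40.8 to 44.6 FPKM (Csf3r, 29.6 and 37.5 FPKM), and both tested ones rose. With the trend removed 8 fibroblast markers rose and 1 fell, and 2 endothelial markers rose and 1 fell. On that scale 2 T cell markers rose and 1 fell, and 2 neutrophil markers rose and 0 fell. The remaining lists summed to less than 12 FPKM in every sample: epithelium with 7 of 11 markers (3.23 to 3.62 and 2.17 to 2.39 FPKM, Cdh1 highest), eosinophils with 5 of 6 (5.65 to 5.72 and 3.27 to 3.74 FPKM, Siglecf), dendritic cells with 7 of 7 (8.36 to 9.26 and 10.8 to 11.5 FPKM, Ccr7) and B cells with 6 of 6 (0.24 to 0.44 and 0.38 to 0.80 FPKM, Cd79b). No listed marker was at 0 in all 6 samples.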

How the data were processed

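RNA was measured in 6 samples, 3 WT and 3 Gsdmd-/-, grouped by their labels. The deposited tables hold 1 value per gene with no unit, read as FPKM because sums differ between samples (476271 to 485411 in WT, 551502 to 565388 in Gsdmd-/-) and the smallest values come in steps proportional to transcript length. Those steps gave the depth of 19.94 M to 20.48 M fragments and are the source of all estimated fragment numbers. The submitters' processing notes name Bowtie2 2.2.5 and GRCm38.p6. For the counting program, annotation, strand use and filters, nothing was found (not given in the sources used here). In 25 cases a symbol that had become a date was replaced through the gene ID.

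Genes with at least 1 FPKM in at least 3 samples were tested on log2(FPKM + 1) with limma 3.58.1 (trend and robust settings, R 4.3.3), which understates the change of low genes. P-values were adjusted by Benjamini-Hochberg over all 10005 tested genes, and rose or fell means an adjusted p under 0.05. The trend was fitted by natural splines (5 degrees of freedom) on length and GC of the longest protein-coding GENCODE M21 transcript. The test was run on simulated data with a small fixed spread, which does not bear on the spread between mice. Copies were sought with BLAST 2.17.0.

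The members and lists were chosen with earlier results of these data known. Named were all members, Gsdmd, Pla2g4a, Hpgd, all other prostanoid synthases and receptors, the 3 genes with the smallest p of each other pathway list, the 5 nearest to Ptgs2, and the highest gene of each marker list with any at 0. Alternatives were other pseudocounts, filters and scalings, trend removal, a replicate block and leaving out each sample.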

Additional observations from a re-analysis of the deposited data

How the results depend on the processing

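Of 38 named genes called on the deposited scale, 28 kept call and direction in every one of the 17 settings that tested them, Ptgs2, Ptges2 and Ptger4 among them. As TPM, 2498 of all tested genes rose, 24 genes of the related lists rose, and of the prostaglandin genes 1 rose and 5 fell. With a filter of 5 FPKM, which leaves Ptges2 out of the test, 1 prostaglandin gene rose. With the length and GC trend removed 4 fell, with or without a replicate block, and with length and GC taken as the median over a gene's transcripts, a setting added after seeing the data, 4 rose. Directions turned for Hpgds (0.21 with the trend removed, 0.36 with median lengths), Tbxas1 (-0.08 with the trend removed and as TPM), Fam213b (-0.08), Cbr2 (-0.19, and -0.05 with median lengths) and Rgs1 (0.13), each with the trend removed and again with the block added to it. They also turned for Ptges3 (0.12 with median lengths, 0.03 without Gsdmd-/- replicate 2) and for Hspa8 (-0.08 under quantile normalization). The causes were not tested. Deviations of same-numbered samples correlated at -0.0818, 0.132 and 0.0143, so the numbers were not taken as pairs, and with the replicate block alone 2 prostaglandin genes rose and 2 fell, as without it. The Gsdmd-/- minus WT difference in the log2 ratio of Ptgs2 to Ptgs1 ranged from -1.40 to -1.31 when each sample was left out. The same difference for the log2 ratio of Ptger4 to Ptger2 ranged from -2.17 to -1.47. The latter was not run with the trend removed, since Ptger2 is below the filter. Ptger2 rests on an estimated 8.2 to 31.2 fragments a sample, which limits the precision of that ratio.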
